A study of Mus musculus with 4 samples.

Results

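The replication-dependent histone genes make the histones that package newly copied DNA. They were taken as the protein-coding rows of the deposited table of TPM (transcript abundance scaled for length and library size) whose symbol in the GENCODE vM21 mouse annotation starts with Hist1h, Hist2h or Hist3h, or is Hist4h4. The annotation holds 67 such genes, and 53 of them were among the 28987 rows of the table, 6 for H1, 16 for H2A, 13 for H2B, 6 for H3 and 12 for H4. The other 14, Hist4h4 among them, were not analysed here. The Hist1 cluster gave 43 members (chromosome 13, 21716422 to 23934851, GRCm38/mm10), the Hist2 cluster 8 (chromosome 3, 96219865 to 96269141) and the Hist3 cluster 2 (chromosome 11, 58948920 to 58956830).

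RNA came from c-Kit+ bone marrow cells of C57BL/6 mice, a bead-selected fraction that the labels call hematopoietic stem and progenitor cells. The 2 Hif1a-intact libraries carried a partial tandem duplication of Mll on 1 allele, Runx1 Flox/Flox and Mx1-Cre, and the 2 Hif1a-null libraries carried the same alleles and Hif-1alpha Flox/Flox. Mx1-Cre is a recombinase under an interferon-inducible promoter, so deletion is not limited to stem and progenitor cells, and both groups share the Mll and Runx1 alleles. The labels give no age, no induction treatment, no sign that replicates came from separate mice and no statement on poly(A) selection. The p-values below therefore measure only the spread between these libraries, which may be technical. Hif1a, the oxygen-regulated subunit of HIF-1, was at 100 and 75.2 TPM without the floxed allele and at 98.8 and 113 TPM with it. A gene-level TPM value also counts transcripts that lack a floxed exon, so it does not check the deletion. Kit read 102 to 128 TPM over the 4 libraries.

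Replication-dependent histone genes are transcribed as cells enter S phase, under the coactivator NPAT, which cyclin E with CDK2 activates. Most lack introns, and their mRNAs end just after a short conserved stem-loop in place of a poly(A) tail. The stem-loop binding protein SLBP holds that structure through processing, translation and decay, and the U7 snRNP and a cleavage complex cut the transcript behind it. Some of the genes also give longer, polyadenylated transcripts, in particular in cells that have left the cycle.

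The stem-loop was found after the stop codon of 36 members, as 16 bases that start with GG, end with CC, hold TT at the seventh and the eighth base and have 6 stem positions that pair (G:U allowed). Only 6 different sequences occurred. They are shown because members are compared below by where their models end relative to this SLBP-bound element, with the stem-loop in capitals and 5 bases of annotated transcript (GENCODE vM21) on each side.
Hist1h1c: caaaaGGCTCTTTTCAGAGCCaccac
Hist1h3e: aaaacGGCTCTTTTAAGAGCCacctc
Hist1h4d: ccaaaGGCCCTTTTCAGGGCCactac
Hist1h4i: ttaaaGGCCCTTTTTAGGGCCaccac
Hist1h4j: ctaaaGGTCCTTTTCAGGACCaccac
Hist3h2ba: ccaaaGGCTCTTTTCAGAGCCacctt
The form of Hist1h1c and Hist3h2ba was shared by 20 members of H1, H2A, H2B and H3. That of Hist1h4d was found in 6 members, all H4, that of Hist1h3e in 5, and those of Hist1h4i and Hist1h4j in 2 H4 members each. The sixth form occurred in Hist2h2ac alone.

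Members were low in every library. 15 of the 53 (28.3%) were listed at 0 in all 4 libraries, against 30.7% of all rows and 22.5% of the 20187 protein-coding rows. They were 1 H1, 3 H2A, 7 H2B, 1 H3 and 3 H4 genes, and included Hist1h1a, Hist1h4c and Hist2h2aa1. A further 24 were at 0 in some libraries, and 14 were above 0 in all 4. An exact 0 in this table can be a failed estimate, and depth is unknown, so such members are given per library with no fold. The number of members at 0 was 28 and 32 in the Hif1a-intact and 26 in each of the Hif1a-null libraries. Only 3 members averaged at least 5 TPM, and 37 were below 1 TPM in every library.

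**Figure D1:**
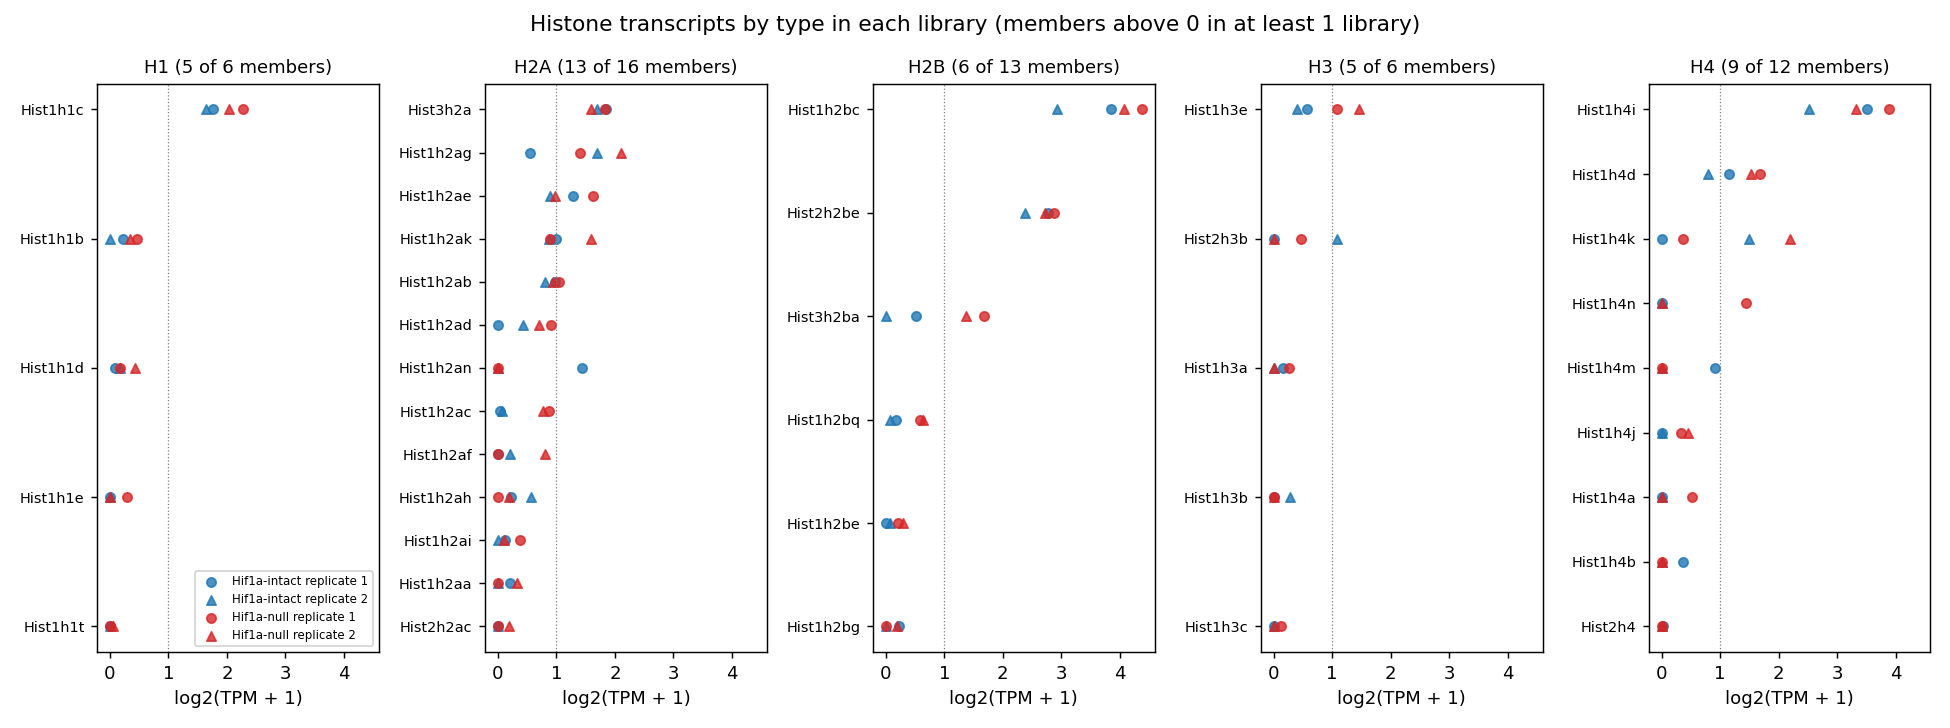
Log2(TPM + 1) in each library of the 38 members above 0 in at least 1 library, grouped by histone type. An exact 0 lies at 0 on the axis. Hist1h2bc (H2B), Hist1h4i (H4) and Hist2h2be (H2B) lie above the others. Members at 0 in all libraries, most of them in H2B (7 of 13), are not drawn.

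The sum over all 53 members came to 44.5 and 30.1 TPM for Hif1a-intact and to 64.1 and 56.1 TPM for Hif1a-null libraries. The groups did not overlap (37.3 ± 10.2 against 60.1 ± 5.68 TPM, mean ± SD, n = 2 each), and the ratio of means was 1.61, or 0.69 on the log2 scale. An exact permutation test of 2 against 2 libraries cannot give a p below 0.333, so no test was made of the sums. In bulk RNA, fewer cells of a type and less RNA per cell cannot be told apart. The size of the difference rested on which control library was used: the log2 ratio was 0.999 without Hif1a-intact replicate 1 and 0.43 without replicate 2.

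H2B made up 42.9% of member TPM, H4 27.5%, H2A 19.9%, H1 6.72% and H3 2.97%. By cluster, Hist1 held 80.9%, Hist2 12.1% and Hist3 6.97%. Hist1h2bc alone held 28.5%, and Hist1h2bc, Hist1h4i and Hist2h2be together 59.2%. The other 50 members summed to 14.97 and 14.5 TPM in the Hif1a-intact and 24.3 and 25.7 TPM in the Hif1a-null libraries, a ratio of 1.69. The difference in the sum therefore did not come from the 3 most abundant genes alone.

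**Figure D2:**
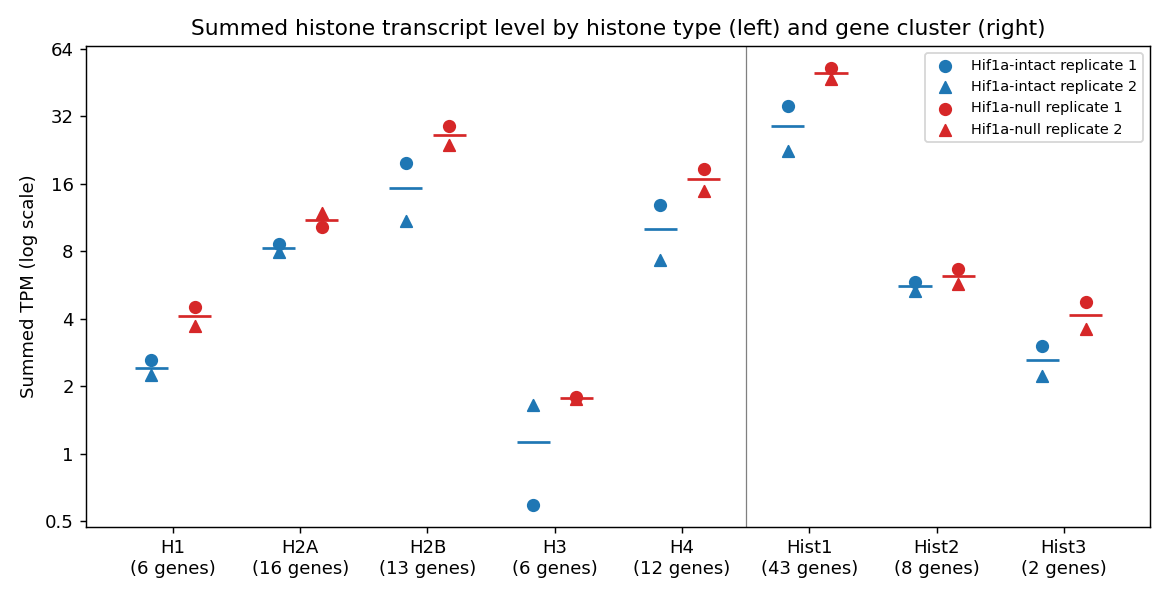
Summed TPM of the members in each library, by histone type and by cluster, with 1 point per library. Each sum except Hist2 is higher in both Hif1a-null libraries than in both Hif1a-intact libraries.

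The linker histone H1 binds DNA between nucleosomes. Hist1h1c (chromosome 13, 23738808 to 23740367) held 87.0% of H1 TPM and read 2.39 and 2.11 TPM in the Hif1a-intact and 3.81 and 3.09 TPM in the Hif1a-null libraries. The groups did not overlap. The remaining H1 genes were below 0.4 TPM in each library. Hist1h1b read 0.164 and 0 against 0.373 and 0.263 TPM, Hist1h1d 0.0583 and 0.127 against 0.122 and 0.338, and Hist1h1e was above 0 only in Hif1a-null replicate 1, at 0.221. Hist1h1t, the testis form, was above 0 only in Hif1a-null replicate 2, at 0.0336 TPM.

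H2A and H2B form the dimers on each face of the nucleosome core. Hist1h2bc (chromosome 13, 23684199 to 23692908) was the highest member at 13.4 and 6.58 TPM in the Hif1a-intact and 19.8 and 15.9 TPM in the Hif1a-null libraries. The Hif1a-null values lay above both controls, although the controls differed from each other more than the Hif1a-null libraries did. Hist2h2be (chromosome 3, 96221119 to 96223738) read 5.79 and 4.20 against 6.31 and 5.56 TPM, and its groups overlapped. Hist3h2ba (chromosome 11, 58948920 to 58949533) read 0.423 and 0 against 2.20 and 1.58 TPM, with no overlap. Hist1h2bq was lower, at 0.134 and 0.0524 against 0.503 and 0.546 TPM. Hist1h2ba, a germ cell form, was at 0 in all 4 libraries.

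Among H2A genes, Hist3h2a (chromosome 11, 58954685 to 58956830) was the steadiest, at 2.61 and 2.22 against 2.55 and 2.002 TPM, and its groups overlapped. Hist1h2ag read 0.467 and 2.25 against 1.65 and 3.31 TPM, and Hist1h2ae 1.44 and 0.865 against 2.10 and 0.957 TPM. Hist1h2ak read 0.999 and 0.842 against 0.854 and 2.01 TPM. All 3 overlapped between groups. Hist1h2aa, a germ cell form, was at 0.157 TPM in Hif1a-intact replicate 1, at 0.251 TPM in Hif1a-null replicate 2 and at 0 in the others. Hist1h2ac (chromosome 13, 23681467 to 23683948) is a member, but the rule for which members are named here does not pick it. It was singled out after its values were seen, and read 0.0281 and 0.0526 against 0.825 and 0.713 TPM.

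H3 and H4 form the tetramer at the centre of the nucleosome. Hist1h4i (chromosome 13, 22040636 to 22041362) read 10.4 and 4.76 TPM in the Hif1a-intact and 13.7 and 8.97 TPM in the Hif1a-null libraries, and its groups overlapped. Hist1h4d (chromosome 13, 23581598 to 23582735) read 1.22 and 0.735 against 2.22 and 1.88 TPM, with no overlap. Hist1h4k was at 0 and 1.82 against 0.291 and 3.59 TPM, so its spread within a group exceeded the distance between them. Hist1h3e (chromosome 13, 23561534 to 23562369) was the highest H3 gene, at 0.478 and 0.316 against 1.11 and 1.75 TPM, with no overlap. The other H3 genes were listed at 0 in at least 1 library: Hist2h3b was above 0 in 1 library of each group, at 1.13 and 0.383 TPM, Hist1h3a likewise at 0.114 and 0.205 TPM, and Hist1h3b in Hif1a-intact replicate 2 alone, at 0.208 TPM.

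Genes were tested with limma on log2(TPM + 1) where at least 2 libraries reached 1 TPM. A positive difference means higher in Hif1a-null, and the added 1 shrinks the differences of genes at low TPM. Of the 53 members 11 were tested and 42 were not. By limma with Benjamini-Hochberg adjustment, 0 of the 11 passed the threshold of 0.05 in either direction, where 7.27% of all 11909 tested genes passed (5.25% higher and 2.02% lower). At an unadjusted p under 0.05, 4 of the 11 were higher (Hist1h1c, Hist1h3e, Hist1h4d and Hist3h2ba) and 0 lower, against 11.4% and 11.9% of all tested genes. The difference was above 0 for 10 of the 11 and for 42.5% of all tested genes. Its median was 0.58 over the members and -0.06 over all tested genes, whose middle part ran from -0.28 (25th percentile) to 0.20 (75th percentile).

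Neither control library reached 1 TPM for Hist3h2ba or Hist1h3e. These members entered the test only through the Hif1a-null group, so their direction was set by the filter. Over the other 9 members the median difference was 0.54 with 8 above 0, beside a median of -0.08 over the 11222 tested genes that reached 1 TPM in both groups. Both Hif1a-null libraries lay above both controls in 3 of the 9, where 19.3% of those genes did. The unadjusted p was under 0.05 in 2 of the 9, all higher, where 7.67% of those genes were higher at that level. Over the 38 members above 0 in a library, tested or not, 11 lay higher without overlap and 1 (Hist1h2ah) lower, where 23.6% and 23.1% of all such rows did.

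The largest tested difference was that of Hist3h2ba, 1.27 with a standard error of 0.24 and an adjusted p of 0.0607 by limma, with its Hif1a-intact replicate 2 entering at 0. It passed the threshold when protein-coding genes alone were tested (limma adjusted p = 0.0398), and its difference ran from 0.40 to 3.10 over the alternatives. Like Hist1h3e, it entered the test only through the Hif1a-null group, so the p-values of both do not support a difference. For Hist1h2bc the difference was 0.84 (SE 0.36, limma adjusted p = 0.262). It was 1.304 without Hif1a-intact replicate 1 and 0.38 without replicate 2, and its adjusted p ran from 0.0551 to 0.813 over the alternatives. For Hist1h3e it was 0.79 (SE 0.19, limma adjusted p = 0.104). Hist1h4d differed by 0.63 (SE 0.18, limma adjusted p = 0.144) and Hist1h1c by 0.45 (SE 0.15, limma adjusted p = 0.188). The other 6 had limma adjusted p-values from 0.482 for Hist1h4i (difference 0.58, but 1.07 without Hif1a-intact replicate 1 and 0.086 without replicate 2) to 0.861 for Hist3h2a, the one member with a difference below 0 (-0.06). Its sign turned to 0.02 without Hif1a-intact replicate 1 and to 0.058 without Hif1a-null replicate 2. Hist1h2ac was not tested. With no filter on low values its difference was 0.77 (SE 0.07) and it passed at a limma adjusted p of 0.0453. Hist1h2ac was singled out after its values were seen and was below 1 TPM in every library. Its near-identical copies include the pseudogene Hist1h2aj (98.8% identical), so this call does not support a difference.

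**Figure D3:**
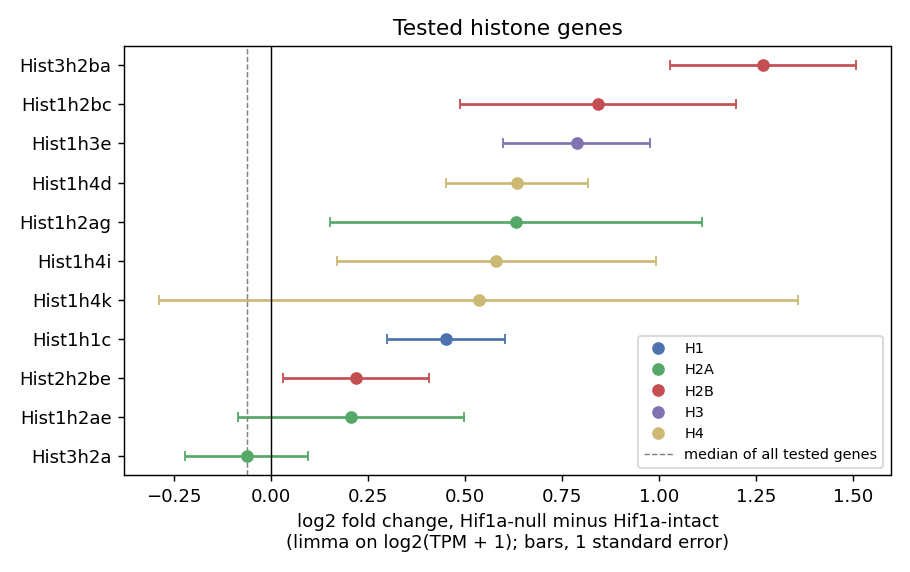
Log2 difference of the 11 tested members, Hif1a-null minus Hif1a-intact by limma on log2(TPM + 1), with bars of 1 standard error; the dashed line is the median of all tested genes (-0.06). Hist3h2ba lies highest at 1.27 and Hist3h2a lowest at -0.06.

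The annotated transcript models of the members end in different places. The limit of 100 bases used to sort them was chosen after the values were seen, and the following is a description. In 19 members the model stops within 100 bases of the stem-loop. These members held 8.66% of member TPM, 1 of them was tested, and their highest mean was 1.92 TPM. In 17 members the model runs more than 100 bases past the stem-loop. They held 42.0% of member TPM, 7 were tested, and Hist1h4i was the highest with a mean of 9.47 TPM. A poly(A) signal, AATAAA, lay within 40 bases of the model's end in 7 of these 17 and in 0 of the 19, counting models that hold the stem-loop. Of the tested members among the 17, Hist1h4i, Hist1h4d and Hist1h3e lacked it there. Hist1h1c, Hist1h2ae, Hist3h2a and Hist3h2ba had it. Hist1h2bp, among the 19, has another model with 2 exons and no stem-loop that does end near the signal.

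In Hist1h1c the stem-loop shown above starts 25 bases after the stop codon and the model runs on for 840 bases. In Hist1h4i it is followed by 330 bases, in Hist1h4d by 770, in Hist1h3e by 369 and in Hist3h2ba by 169. The models of Hist1h2bc (2 exons, 742 bases after the stop codon) and Hist2h2be (1 exon, 2192 bases after the stop codon) hold no complete stem-loop. They belong to a set of 5 members without one and with more than 100 bases after the stop codon, which held 40.6% of member TPM. The model of Hist2h2be has AATAAA within 40 bases of its end, and that of Hist1h2bc does not. The last 12 members have no complete stem-loop and a 3′ part of at most 100 bases, and held 8.71%. Members whose models extend over 100 bases past the stem-loop or, lacking one, past the stop codon thus held most of the member TPM. Whether the reads came from such long parts cannot be read from gene-level TPM.

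**Figure D4:**
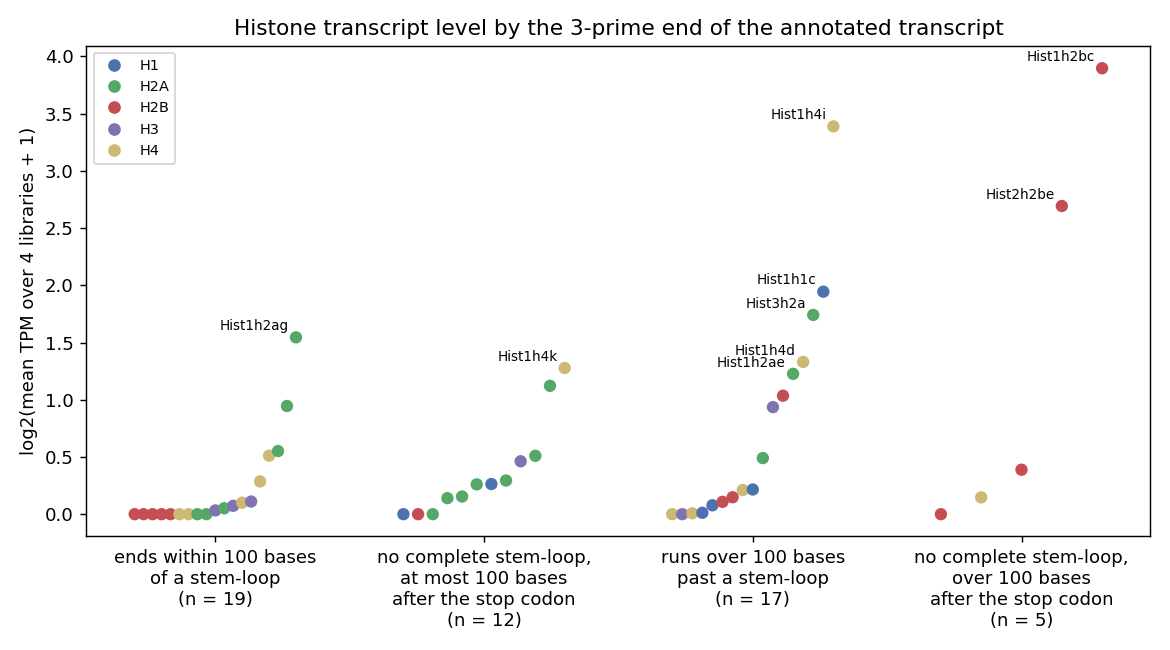
Mean TPM over the 4 libraries of each member, by where its annotated transcript model ends relative to the stem-loop. Members whose model stops within 100 bases of it reach 1.92 TPM at most, and the highest member, at 13.9 TPM (Hist1h2bc), is in the set with a long 3′ part and no complete stem-loop.

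Near-identical copies limit what single members show. Copies were sought at other loci, 95% or more identical across 90% or more of the shorter of both transcripts. Only copies whose gene has a row were counted. Such a copy was found for 31 members, and for 30 of them another member was such a copy. Among the tested members Hist1h2bc, Hist1h2ae, Hist1h2ag and Hist1h4k have one, so how reads were shared among copies could bear on their values, which was not tested. Of Hist1h4m and Hist1h4n, which are 99.8% identical, Hist1h4m read 0.878 TPM in Hif1a-intact replicate 1 and 0 elsewhere, and Hist1h4n 1.70 TPM in Hif1a-null replicate 1 and 0 elsewhere. Summed over copies, a group of 10 H2A members read 5.86 and 5.75 TPM in the Hif1a-intact and 7.66 and 9.48 TPM in the Hif1a-null libraries. A group of 10 H2B members read 13.7 and 6.69 against 20.4 and 16.8 TPM, and a group of 6 H4 members 1.17 and 1.82 against 2.26 and 3.95 TPM. These 3 sums were higher in both Hif1a-null libraries. Of the remaining 2 groups, Hist2h3b with Hist2h3c2 read 0 and 1.13 against 0.383 and 0 TPM, with overlap, and Hist2h2aa1 with Hist2h2aa2 was at 0 throughout. With its copy Hist1h2aj, an annotated pseudogene and no member, the H2A group read 344 and 302 against 356 and 279.6 TPM and overlapped as well. Hist1h1c, Hist2h2be, Hist3h2a, Hist3h2ba, Hist1h3e, Hist1h4d and Hist1h4i have no such copy with a row. Whether they have one among annotated genes without a row is not given here.

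Many H2A and H2B genes lie head to head and share the stretch between them. Of 8 such pairs with starts within 1000 bases, the H2B gene was the higher partner in 2, Hist1h2ac with Hist1h2bc (251 bases apart) and Hist2h2ac with Hist2h2be (239 bases apart). Hist2h2ac was at 0 in 3 libraries and at 0.146 TPM in Hif1a-null replicate 2. In Hist1h2ac with Hist1h2bc both partners lay higher in both Hif1a-null libraries. In the other 6 pairs the H2B gene was at 0 in all 4 libraries, except Hist1h2bg, which was at most at 0.175 TPM.
The promoters of the H2A partners, 250 bases before to 50 bases after the start, are given because they contain the whole stretch between these 2 pairs (RefSeq, GRCm38.p6). They are at chr13:23683910-23684209 and chr3:96220831-96221130, both on the minus strand, and the capitals mark the octamer, ATTTGCAT or its reverse complement ATGCAAAT.
Hist1h2ac: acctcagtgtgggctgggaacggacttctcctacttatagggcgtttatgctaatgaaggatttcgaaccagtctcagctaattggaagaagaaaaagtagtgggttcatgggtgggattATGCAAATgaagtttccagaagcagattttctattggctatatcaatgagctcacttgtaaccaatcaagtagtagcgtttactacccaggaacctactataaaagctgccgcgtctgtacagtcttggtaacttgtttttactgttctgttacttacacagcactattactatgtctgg
Hist2h2ac: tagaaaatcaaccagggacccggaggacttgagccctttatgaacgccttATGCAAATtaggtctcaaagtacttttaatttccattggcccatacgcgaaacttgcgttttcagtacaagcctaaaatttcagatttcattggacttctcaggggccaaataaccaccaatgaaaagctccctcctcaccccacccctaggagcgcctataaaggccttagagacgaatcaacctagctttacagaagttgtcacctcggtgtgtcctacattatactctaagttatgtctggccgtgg
The octamer is bound by OCT1, which works with a coactivator at H2B promoters. Of the 49 members with a promoter in RefSeq, 12 (24.5%) held it on either strand, 7 of 16 H2A and 5 of 11 H2B and 0 of the others, against 1.74% of 32851 promoters of the same length. A CCAAT box (CCAAT or ATTGG) was found in 83.7% of members and 37.4% of all promoters, and TATAAA or its reverse complement in 63.3% and 13.6%. Of the H4 members 3 of 11 held a CCAAT box. The core of the HIF response element, ACGTG or CACGT, was found in 10 of the 49 (20.4%) and in 19.6% of all promoters. Partners of a pair overlap in sequence and are not independent.

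Genes that serve the histones were read from lists chosen with earlier results of these data known. Of the histone mRNA processing list 24 of the 26 with a row were tested, and 0 passed in either direction by limma (0 at an unadjusted p under 0.05), with a median difference of -0.01. Of all tested genes 7.27% passed. At an unadjusted p under 0.05 by limma, 11.4% of them were higher and 11.9% lower. Slbp, which binds the stem-loop, read 333 and 267 TPM in the Hif1a-intact and 378 and 360 TPM in the Hif1a-null libraries (0.31, limma adjusted p = 0.366). Snrpg, a core protein of small nuclear ribonucleoproteins, differed by -0.37 (limma adjusted p = 0.389) and Lsm1, an mRNA decay factor, by -0.38 (limma adjusted p = 0.432). In every library the Slbp value was above the summed TPM of all members (30.1 to 64.1 TPM). The labels do not state poly(A) selection, so how well mRNAs without a tail were captured is unknown. The pseudogene copy Hist1h2aj, at 270 to 348 TPM, may also hold reads of H2A members, which was not tested.

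The replication-independent histone variants are made outside S phase as well, and their mRNAs generally carry poly(A) tails. Of the 13 with a row, 9 were tested and 0 passed by limma (0 higher and 1 lower at an unadjusted p under 0.05), with a median of -0.06. The shares over all tested genes were 7.27% passing, and 11.4% higher and 11.9% lower at an unadjusted p under 0.05 by limma. Their sum was 3454 and 2298 TPM against 2499.7 and 2299 TPM, and overlapped. H2afy, which encodes macroH2A, read 281 and 263 against 193 and 144 TPM (-0.70, limma adjusted p = 0.132), and Cenpa, the centromeric H3, 86.6 and 55.5 against 108 and 106 TPM (0.61, limma adjusted p = 0.249). H1fx, a linker histone, was at 0.955 and 0 against 1.11 and 1.32 TPM (limma adjusted p = 0.365). Each of the 4 libraries held more TPM of these variants than of the replication-dependent members with a row. Most mRNAs of the latter lack a poly(A) tail and the labels do not state poly(A) selection. Capture may therefore differ between these classes, which was not tested.

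Of 28 histone chaperone and nuclear import genes tested, 0 passed by limma (1 higher and 2 lower at an unadjusted p under 0.05), and the median was -0.02. Atrx and Daxx, which together place histone H3.3, differed by -0.45 and -0.37 (limma adjusted p = 0.198 each), and Mms22l, which acts at damaged forks, by 0.37 (limma adjusted p = 0.208). Of all tested genes 5.25% passed higher and 2.02% lower, and 42.5% were above 0. At an unadjusted p under 0.05 by limma, 11.4% of them were higher and 11.9% lower. Of 30 S phase genes tested, 1 passed higher and 0 lower, 6 were higher at an unadjusted p under 0.05, 23 were above 0, and the median was 0.18. The one was Ccne1, cyclin E1, at 14.98 and 14.2 against 40.9 and 41.2 TPM (1.43, SE 0.12, limma adjusted p = 0.0119). Its adjusted p ran up to 0.228 over the alternatives, and without either Hif1a-null library 0 S phase genes passed. The S phase genes summed to 2453 and 2926 against 3188 and 3323 TPM, with no overlap.

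**Figure D5:**
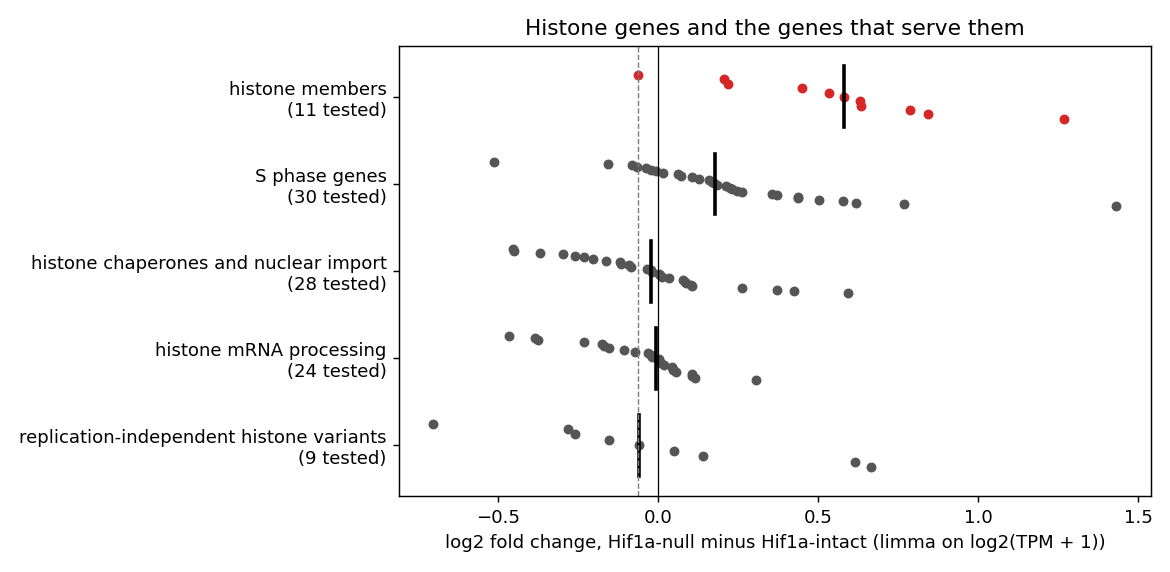
Log2 difference, Hif1a-null minus Hif1a-intact, of each tested histone member and of each tested gene of the 4 lists; vertical bars are medians and the dashed line is the median of all tested genes (-0.06). The histone median is 0.58, that of S phase genes 0.18, and those of the other lists lie between -0.06 and -0.01.

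Markers of cell types in the marrow also differed between the groups beside these histone values. Of all 11909 tested genes 5.25% passed higher and 2.02% lower by limma. Erythroid markers summed to 239 and 168 TPM in the Hif1a-intact and 7744 and 8274 TPM in the Hif1a-null libraries, and 19 of 20 tested passed higher. Granulocyte markers summed to 65254 and 58347 against 109550 and 106587 TPM (8 of 17 higher), megakaryocyte markers to 56.5 and 54.2 against 189.6 and 209 TPM (8 of 13), and B lineage markers to 22.5 and 18.7 against 245 and 243 TPM (10 of 11). T and NK markers summed to 185 and 291 against 192 and 219 TPM (6 of 8 higher), and monocyte, macrophage and dendritic markers to 330 and 364 against 495 and 489 TPM (4 of 13, and 1 lower). Nkg7, an NK granule gene, made up 177 and 284 against 122 and 144 TPM of the T and NK sum, and the other T and NK markers summed to 7.97 and 7.18 against 70.3 and 74.8 TPM. Stem and progenitor markers summed to 502 and 489 against 425 and 430 TPM (2 of 10 higher and 1 lower), and without Cd34 to 258 and 238 against 247 and 224 TPM, with overlap. Among defining markers, Rag1, Igll1, Prf1, Gzma and Gp6 were at 0 in both Hif1a-intact libraries and in no Hif1a-null library. Their part in the histone difference was not tested.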

How the data were processed

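4 RNA libraries, 2 per group, were analysed. RNA was extracted on RNeasy columns from CD117 bead-selected cells and sequenced from standard Illumina libraries, per the labels' protocols. The authors deposited 1 TPM value per Ensembl gene and library, made with kallisto and the mm10 build, per the submitters' processing notes; for the kallisto version, transcript set and strand setting the sources used here give nothing. The columns sum to 955562 to 963135. Without read counts the depth of each library is unknown and counting error cannot be given; kallisto divides reads between near-identical transcripts by estimation. No batch is named in the labels.

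Differences were tested with limma 3.58.1 in R 4.3.3 (two-sided, eBayes without trend or robust variance). Values were log2(TPM + 1), a gene needed 1 TPM or more in 2 or more libraries, and p-values were adjusted over all tested genes by Benjamini-Hochberg, with a threshold of 0.05. The script was tested on simulated data. Sums over members and medians were given without a test. Copies were found with blastn 2.17.0 among GENCODE vM21 transcripts and kept where their gene had a row, and promoters came from RefSeq. Figures used matplotlib 3.10.9 in Python 3.11.15. Named were Hif1a, members past the threshold, the 4 members of highest mean in each histone type, Hist3 members, germ cell forms, and from each list the called genes or the 3 of smallest p. Alternatives covered the variance model, rescaling, filter, pseudocount, genes in the fit, copies summed and each library left out. The members and lists were chosen with earlier results of these data known.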

Additional observations from a re-analysis of the deposited data

How the results depend on the processing

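With 2 libraries per group, leaving out 1 leaves a lone library that is assumed to vary like the other group. No paired analysis was possible because the labels carry no replicate numbers shared between groups. The number of members passing higher was 0 in the main fit. Among the alternatives that kept all 4 libraries, it was 1 with no filter on low values (Hist1h2ac, below 1 TPM in every library). It was also 1 there with protein-coding genes only (Hist3h2ba, which entered only through the Hif1a-null group). Of the members, 0 passed lower in these fits. Their median difference of 0.58 was 0.21 with no filter, 0.91 with a pseudocount of 0.1, 0.24 with one of 5, 0.34 with quantile normalization, and 0.39 to 0.66 over the libraries left out. The log2 ratio of summed TPM was 0.43 to 0.999 over them, the highest without Hif1a-intact replicate 1, where H2B gave 1.28, H4 1.19 and Hist1 1.14. Signs turned for Hist1h2ae (-0.16, quantile normalization), Hist1h4k (-0.21 without Hif1a-intact replicate 1, up to 1.45 over the libraries left out), Hist3h2a (0.02 without Hif1a-intact replicate 1 and 0.058 without Hif1a-null replicate 2, from -0.18 over the libraries left out), and, without their highest member, the log2 ratio of the H3 sum (-1.09) and of the Hist2 sum (-1.12); the cause was not tested. S phase genes passing higher were 1, 2 with a pseudocount of 5 and 0 to 1 over the libraries left out, and replication-independent variants 0 to 2. Of 141 values for tested members under alternatives, 135 kept direction and side of the threshold. Over all genes 866 passed, and 568 with no filter, 493 at 5 TPM, 19 without Hif1a-null replicate 1 and 0 without replicate 2. Robust variance, copies summed with pseudogenes, and the median without members below 1 TPM in a group were chosen after seeing the data.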

Other observations

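An annotated H2A pseudogene outside the rule, Hist1h2aj (chromosome 13, 21721457 to 21721808, GRCm38/mm10), stood far above every histone member. It read 338 and 296 TPM in the Hif1a-intact and 348 and 270 TPM in the Hif1a-null libraries, with overlapping groups (log2 difference -0.04, limma adjusted p = 0.92). Its transcript is 98.2% to 99.7% identical to those of 10 H2A members, whose sum was at most 9.48 TPM in a library. A second pseudogene, Hist1h2al, read 0 and 2.10 against 1.14 and 2.10 TPM. How much of the Hist1h2aj value came from reads of the H2A members was not tested.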
